A study of Homo sapiens with 39 samples.

Results

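The genes described here are the 3 sestrins (SESN1, SESN2 and SESN3), the mTORC1 inhibitor gene DDIT4, the transcription factor gene FOXO3, and ATF4 with 4 genes of its amino acid and stress response (DDIT3, ASNS, TRIB3 and CHAC1). They were chosen by symbol, and all 10 were found among the 15808 genes of the count table. The 39 RNA-seq libraries came from 4 established human lymphoma lines of B cell origin. DOHH2 and Toledo are of the germinal centre type, while OCILy10 and TMD8 are of the activated B cell type. Every line had 3 libraries after DMSO, the vehicle, 3 after NEO2734, a dual inhibitor of the BET and CBP/p300 bromodomains, and 3 after OTX015, an inhibitor of the BET bromodomains. OCILy10 also had 3 libraries after CB103, an inhibitor of the Notch transcription complex, which makes 13 groups. Each sample's own label gives 6 h, while a protocol text shared by the samples names other compounds and, beside 6 h, a longer treatment, and the sample labels were used here. The labels state no dose for any compound, so doses could not be matched. Nor do they state that a group's libraries were grown as separate cultures, so the p-values measure the spread between these libraries, which may be technical.

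Sestrins are stress-inducible proteins that hold back mTORC1, the kinase complex that couples growth to nutrients. Sestrin 2 and sestrin 1 bind leucine and act through the GATOR2 complex, and sestrins also act with AMPK. SESN1 is known as a p53 and FOXO target, SESN3 as a FOXO target, and SESN2 as a target of p53 and of ATF4. ATF4 is translated when kinases phosphorylate eIF2 during amino acid shortage or endoplasmic reticulum stress, and it switches on amino acid synthesis and transport genes. SESN1 is known as a tumour suppressor in follicular lymphoma.

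By GENCODE 29 on GRCh38 (hg38), SESN1 (ENSG00000080546.12) lies at chr6:108986437-109094819 on the minus strand, SESN2 (ENSG00000130766.4) at chr1:28259527-28282491 on the plus strand and SESN3 (ENSG00000149212.9) at chr11:95165513-95232541 on the minus strand. FOXO3 (ENSG00000118689.13) is at chr6:108559835-108684774 and DDIT4 (ENSG00000168209.4) at chr10:72273920-72276036, both on the plus strand. ATF4 (ENSG00000128272.13) is at chr22:39519695-39522685 on the plus strand. DDIT3 (ENSG00000175197.9) is at chr12:57516588-57521737 and ASNS (ENSG00000070669.15) at chr7:97852118-97872542, both on the minus strand. TRIB3 (ENSG00000101255.9) is at chr20:362835-397559 and CHAC1 (ENSG00000128965.10) at chr15:40952962-40956519, both on the plus strand. The values are counts over whole genes, so they do not separate exons, introns or untranslated regions. Strandedness of the counting is not given in the sources used here. DDIT3 overlaps MARS and MBD6, and DDIT4 overlaps DDIT4-AS1, each on the opposite strand and each counted in the same table, so their reads may not be told apart. The annotation names 4 copies each of ATF4 and ASNS and 1 of FOXO3, none with a row in the table, and reads that such copies share make these 3 genes less certain.

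The start regions of the 3 sestrin genes are shown because these genes moved together. Each line gives the 100 bases before the RefSeq start (GRCh38.p14), with every CG dinucleotide in capitals.
SESN1 (chr6:109094847-109094946, minus strand): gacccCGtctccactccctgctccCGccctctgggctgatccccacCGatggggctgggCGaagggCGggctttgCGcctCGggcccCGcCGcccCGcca
SESN2 (chr1:28259418-28259517, plus strand): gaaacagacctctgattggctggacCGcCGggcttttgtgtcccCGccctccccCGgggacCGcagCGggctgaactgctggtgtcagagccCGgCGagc
SESN3 (chr11:95232476-95232575, minus strand): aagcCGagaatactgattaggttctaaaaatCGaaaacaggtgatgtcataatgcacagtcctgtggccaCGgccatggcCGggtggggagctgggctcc
These stretches hold 10, 8 and 4 CG dinucleotides. Over the full RefSeq window, 250 bases before to 50 after the start, GC content was 75% for SESN1, 67% for SESN2 and 45% for SESN3, against a median of 58.7% over 35116 windows. Of these genes SESN1 has 3 windows, and the one nearest the 5′ end of the gene was used.

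The element that C/EBP and ATF factors share, searched as TGATGNAA on both strands, occurs in 3.62% of all such windows. Among the 20 windows of the 10 genes it occurs in 2, those of ASNS and CHAC1. The matches are shown with the element in capitals because ASNS and CHAC1 are textbook ATF4 targets.
ASNS (chr7:97872458-97872487, minus strand, element starting at position -68): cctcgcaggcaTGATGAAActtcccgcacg
CHAC1 (chr15:40953251-40953280, plus strand, element on the other strand): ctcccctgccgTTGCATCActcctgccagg
The FOXO motif GTAAACA was in 3.42% of all windows and in none of these genes' 20 windows, and TGACGTCA was in 1.85% and in none.

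Library totals ran from 1000281 to 11668542 counts, with 15 deep libraries (at least 6670250) and 24 shallow ones (at most 3420458). Each group had 1 deep library, apart from OCILy10 DMSO and OCILy10 NEO2734 with 2. Deep and shallow libraries of the same group differed in 59.6% of the 12814 genes tested. Some libraries, 3 in all, held genes private to another line. Toledo DMSO replicate 2 had the OCILy10 genes at 72.2% of their level there and its own at 37.0%. OCILy10 CB103 replicate 2 had the Toledo genes at 25.8%, and DOHH2 NEO2734 replicate 3 had the OCILy10 genes at 10.6%, whereas no other library passed 2.18%. B cell markers summed to between 1132 and 5024 CPM (counts scaled to a common library size) in every library. The T cell genes in the table, 2 of 6 listed, summed to between 0 and 78.8 CPM, and CD3D, CD3E, CD3G and CD8A had no row. Of 6 monocyte genes 3 had a row, at 0 to 6.09 CPM in all, and CD14 had none. Averaged over the lines, 4 of the 7 B cell genes fell with NEO2734 (20.5% of all genes called), among them PAX5, MS4A1 and CD22, and 3 with OTX015 (11.6% called). TRAC was also lower with both. Within single lines NEO2734 lowered it beyond the threshold only in Toledo (log2 -6.17 ± 1.34, SE), whose DMSO libraries include replicate 2 with its OCILy10 genes. The part of that library in the fall of TRAC was not tested, nor that of all these genes in the changes below. In whole-culture RNA of this kind, fewer cells with a transcript and less transcript per cell cannot be told apart.

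Per kilobase of annotated exon and averaged over all libraries, ATF4 had the highest level, 107 CPM per kb. DDIT3 (25.1), DDIT4 (24.5) and ASNS (18.9 CPM per kb) followed. SESN3 stood at 8.79 CPM per kb, SESN2 at 5.68, TRIB3 at 3.02, SESN1 at 2.84 and FOXO3 at 2.29, and CHAC1 was lowest at 0.488. Of the 10 genes, 9 passed the low-count filter and were tested with edgeR's quasi-likelihood test, with adjusted p under 0.05 (Benjamini-Hochberg over all genes tested) as the call. CHAC1 did not pass it and is described by its counts.

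The lines differed from each other before any inhibitor. With DMSO, 7 of 9 genes differed between the 4 lines (48.1% of all genes did, F-test over the lines), and ASNS (adjusted p = 0.0544) and TRIB3 (0.590) did not pass. TMD8 had the lowest DMSO level of all 3 sestrins.

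SESN3 was at 1.29, 3.88 and 3.84 CPM in the 3 TMD8 DMSO libraries, at 43.8, 56.3 and 62.1 CPM in DOHH2, at 46.6, 79.2 and 28.6 CPM in Toledo and at 52.6, 96.6 and 165 CPM in OCILy10. The TMD8 libraries lay below all others, with a log2 difference from DOHH2 of -4.36 ± 0.58 (SE) and an adjusted p of 1.38e-06. The other lines overlapped, and none of their pairs passed for SESN3. The Toledo value of 79.2 CPM was that of replicate 2, which held OCILy10 genes. Without that library the Toledo mean of SESN3 was 37.6 CPM, against 105 CPM in OCILy10, and the libraries of these 2 lines did not overlap. SESN2 was highest in DOHH2 with DMSO, at 26.6, 40.2 and 19.4 CPM. It was at 5.75, 16.4 and 9.04 CPM in OCILy10, 5.37, 19.4 and 6.14 CPM in Toledo and 1.94, 1.11 and 1.92 CPM in TMD8. All pairs passed for SESN2 except Toledo and OCILy10, which overlapped (log2 difference 0.01 ± 0.47, adjusted p = 0.996). The high Toledo value of 19.4 CPM was that of replicate 2, and leaving out those 3 mixed libraries, the SESN2 difference between Toledo and DOHH2 was -2.35 in place of -1.45. SESN1 stood at 4.43 to 5.72 CPM in TMD8 and at 10.4 to 17.2 CPM in the other 3 lines, whose pairs did not pass.

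DDIT4 and FOXO3 ordered the lines differently. DDIT4, which encodes an inhibitor of mTORC1 upstream of the TSC complex, was at 102, 105 and 117 CPM in DOHH2 with DMSO. It was at 27.3, 28.96 and 42.0 CPM in Toledo, 14.997, 32.7 and 33.2 CPM in TMD8 and 4.26, 15.1 and 6.53 CPM in OCILy10. DOHH2 lay above every other line, and only Toledo and TMD8 did not differ (adjusted p = 0.735). FOXO3 was at 36.5, 13.1 and 34.8 CPM in Toledo, 18.8, 16.1 and 19.4 CPM in DOHH2, 3.24, 7.20 and 8.65 CPM in TMD8 and 2.66, 3.17 and 1.51 CPM in OCILy10. Neither Toledo and DOHH2 (adjusted p = 0.410) nor TMD8 and OCILy10 (0.0841) were called apart for FOXO3, while the other pairs were. The Toledo value of 13.1 CPM was that of replicate 2, which held OCILy10 genes. Without that library the Toledo mean was 35.6 CPM, against 18.1 CPM in DOHH2.

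ATF4 was highest in OCILy10 with DMSO, at 529, 378 and 355 CPM. It stood at 342, 224 and 264 CPM in DOHH2, at 239, 323 and 270.1 CPM in Toledo and at 136, 101 and 137 CPM in TMD8. TMD8 was lowest for ATF4 against each other line, DOHH2 and Toledo did not differ beyond their spread (log2 difference 0.00 ± 0.22, adjusted p = 0.998), and Toledo against OCILy10 missed the threshold (-0.60 ± 0.22, adjusted p = 0.0582). The Toledo value of 323 CPM was that of replicate 2, which held OCILy10 genes. Without that library the Toledo mean was 255 CPM, against 421 CPM in OCILy10. DDIT3, which encodes the stress factor CHOP, was at 48.9, 35.5 and 152 CPM in Toledo and between 5.07 and 23.5 CPM in the 9 DMSO libraries of the other lines. Toledo lay above all of them, and the other pairs did not pass for DDIT3. ASNS, the asparagine synthetase gene, passed only between Toledo and TMD8 (1.91 ± 0.60, adjusted p = 0.0177), and no pair of lines passed for TRIB3. In all, 28 of 54 pair tests were called. The calls were 6 between TMD8 and DOHH2 (28.5% of all genes), 5 between TMD8 and OCILy10 (20.8%), 7 between Toledo and TMD8 (24.9%), 4 between OCILy10 and DOHH2 (30.1%), 3 between Toledo and DOHH2 (23.5%) and 3 between Toledo and OCILy10 (15.9%).

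The first question was what BET inhibition, with or without CBP/p300 inhibition, did to these genes after 6 h. All 3 sestrins rose with both inhibitors, and no other gene of the set was called in either direction. With NEO2734, averaged over the 4 lines, 3 of 9 genes were called, all higher, where 20.5% of all genes were called and 9.29% were called higher. With OTX015 the same 3 sestrins were called, where 11.6% of all genes were called and 5.53% were called higher. The NEO2734 and OTX015 comparisons share their DMSO libraries, so the values stand side by side and are not independent of each other. The median log2 change of the 9 genes was 0.51 with NEO2734 and 0.30 with OTX015, against -0.02 and -0.03 over all genes.

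**Figure D1:**
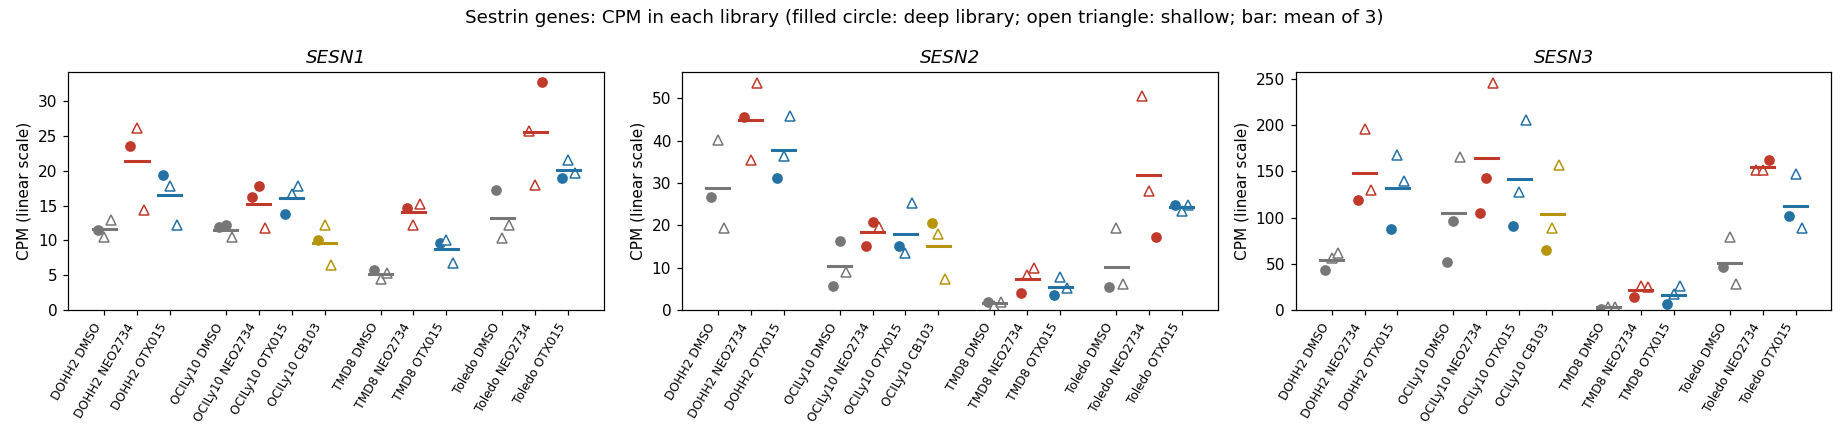
CPM on a linear scale (y axis) of SESN1, SESN2 and SESN3 in each of the 39 libraries, by group (x axis). Filled circles are deep libraries, open triangles shallow ones, bars the mean of 3, grey DMSO, red NEO2734, blue OTX015 and yellow CB103; within each treatment given to all lines TMD8 has the lowest mean of SESN2 and SESN3, and its SESN3 runs from 1.29 CPM with DMSO to at most 26.3 CPM with an inhibitor.

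SESN3 had the largest change of the 3 sestrins in the average over lines, in DOHH2 and in TMD8, while SESN2 had it in OCILy10 and Toledo. In DOHH2 it went from 43.8, 56.3 and 62.1 CPM with DMSO to 119, 195 and 129 CPM with NEO2734 and 88.1, 167 and 139.8 CPM with OTX015. In TMD8 it went from 1.29, 3.88 and 3.84 CPM to 14.0, 26.2 and 25.2 CPM with NEO2734 and 6.99, 17.2 and 26.3 CPM with OTX015. Neither inhibitor's libraries overlapped those with DMSO in these lines. In Toledo SESN3 went from 46.6, 79.2 and 28.6 CPM to 151, 151 and 163 CPM with NEO2734 and 101, 148 and 88.6 CPM with OTX015, again without overlap. In OCILy10 the groups did overlap, with 52.6, 96.6 and 165 CPM for DMSO, 105, 143 and 245 CPM for NEO2734 and 91.1, 128 and 205 CPM for OTX015. Averaged over the lines SESN3 rose by 1.68 ± 0.25 (log2, SE; 3.20-fold, adjusted p = 1.32e-05) with NEO2734 and by 1.37 ± 0.25 (2.58-fold, adjusted p = 0.000466) with OTX015.

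SESN2 showed the same direction with more spread. In DOHH2 it was at 26.6, 40.2 and 19.4 CPM with DMSO, 45.6, 35.5 and 53.6 CPM with NEO2734 and 31.2, 36.3 and 45.9 CPM with OTX015. In OCILy10 it was at 5.75, 16.4 and 9.04 CPM with DMSO, 15.1, 20.9 and 19.6 CPM with NEO2734 and 15.3, 13.6 and 25.3 CPM with OTX015. The groups overlapped in both lines. In TMD8 SESN2 went from 1.94, 1.11 and 1.92 CPM, which rest on 24 counts in all, to 4.16, 8.31 and 9.94 CPM with NEO2734 and 3.50, 7.89 and 5.26 CPM with OTX015, without overlap. In Toledo it went from 5.37, 19.4 and 6.14 CPM to 50.5, 28.1 and 17.3 CPM with NEO2734, where the deep library, the lowest of the 3, lay below the 19.4 CPM of DMSO replicate 2. With OTX015 the Toledo libraries were at 24.9, 23.5 and 24.7 CPM, all above DMSO. The averaged rise of SESN2 was 1.28 ± 0.24 (2.42-fold, adjusted p = 0.000275) with NEO2734 and 1.00 ± 0.24 (adjusted p = 0.00639) with OTX015.

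SESN1 had the smallest averaged change of the 3, although in DOHH2 it changed more than SESN2 with both inhibitors. Its DOHH2 values were 11.4, 10.5 and 12.9 CPM with DMSO, 23.6, 26.1 and 14.3 CPM with NEO2734 and 19.4, 17.9 and 12.2 CPM with OTX015. The lowest NEO2734 value in DOHH2, 14.3 CPM, was that of replicate 3, which held OCILy10 genes. In TMD8 SESN1 was at 5.72, 4.43 and 5.29 CPM with DMSO, 14.6, 12.2 and 15.3 CPM with NEO2734 and 9.58, 10.0 and 6.84 CPM with OTX015. In Toledo it was at 17.2, 10.4 and 12.3 CPM with DMSO, 25.7, 18.01 and 32.7 CPM with NEO2734 and 19.0, 21.6 and 19.6 CPM with OTX015. Both inhibitors' libraries lay above DMSO in TMD8 and Toledo. In OCILy10 it was at 11.9, 12.2 and 10.5 CPM with DMSO, 16.2, 17.8 and 11.8 CPM with NEO2734 and 13.8, 16.6 and 17.8 CPM with OTX015, apart from DMSO only for OTX015. SESN1 rose by 0.91 ± 0.14 (1.88-fold, adjusted p = 2.08e-05) with NEO2734 and by 0.58 ± 0.14 (1.49-fold, adjusted p = 0.00606) with OTX015.

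Counted over lines, the NEO2734 and DMSO libraries did not overlap in 3 of 4 lines for SESN1 and SESN3 and in 1 for SESN2, where 3.53% of all genes were higher without overlap in at least 3 lines. In single lines that share was 8.64% in DOHH2, 9.77% in OCILy10, 7.34% in TMD8 and 6.54% in Toledo. For OTX015 the numbers were 3 lines for SESN1, 3 for SESN3 and 2 for SESN2, where 1.82% of all genes were so in at least 3 lines, and 7.01%, 5.66%, 4.96% and 5.58% in DOHH2, OCILy10, TMD8 and Toledo.

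The direction of the averaged changes was the same in both depth classes. Within the deep libraries alone and within the shallow ones alone, the mean of each sestrin was above that with DMSO in 4 of 4 lines for both inhibitors. The smallest log2 ratio, 0.014 for SESN3 with OTX015 in shallow OCILy10 libraries, was close to no change. The only shallow DMSO library of that line stood at 165 CPM. The share of all genes higher in 4 of 4 lines was not counted. The mean log2 ratios for NEO2734 were 0.96 (deep) and 0.85 (shallow) for SESN1, 1.07 and 1.48 for SESN2, and 1.85 and 1.56 for SESN3. For OTX015 they were 0.46 and 0.68 for SESN1, 0.94 and 1.15 for SESN2, and 1.21 and 1.25 for SESN3. With the deep libraries alone, which are a single library in most groups, SESN2 with NEO2734 (adjusted p = 0.124) and all 3 sestrins with OTX015 (SESN1 0.265, SESN2 0.226, SESN3 0.0903) no longer passed, nor did SESN1 with OTX015 in the shallow ones (0.0852). With the 3 mixed libraries left out, the sestrins remained called with both inhibitors, at 0.93 (SESN1), 1.47 (SESN2) and 1.82 (SESN3) for NEO2734 and 0.54, 1.22 and 1.48 for OTX015.

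**Figure D2:**
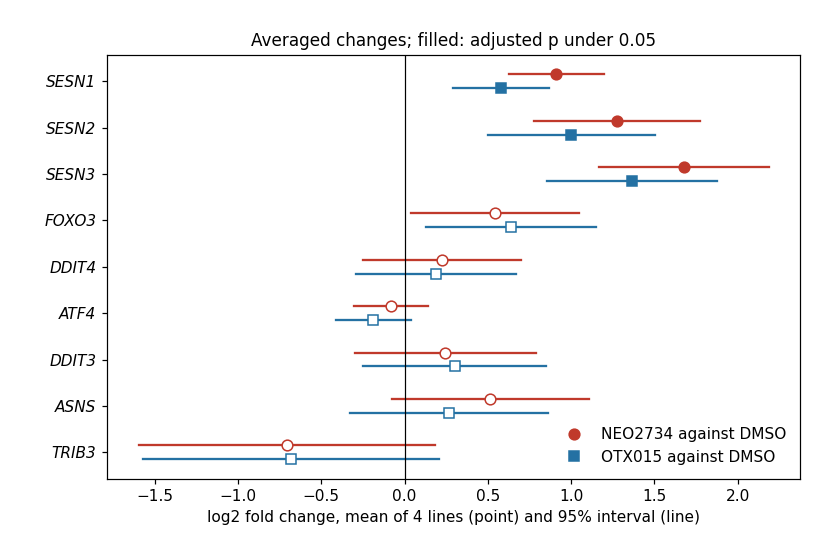
Log2 fold change (x axis) averaged over the 4 lines with its 95% interval, for the 9 genes tested (y axis), NEO2734 as red circles and OTX015 as blue squares, filled where the adjusted p was under 0.05. The filled points are those of the 3 sestrins, from 0.58 to 1.68, and the interval of ATF4 spans 0 for both inhibitors.

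Line by line, the calls concentrated on TMD8 and Toledo. With NEO2734 in TMD8, 3 of 9 genes were called, all higher (2.17% of all genes, 0.726% higher), namely SESN1 (1.43 ± 0.29, adjusted p = 0.00461), SESN2 (2.05 ± 0.54, adjusted p = 0.0399) and SESN3 (3.03 ± 0.58, 8.19-fold, adjusted p = 0.00319). Same-numbered TMD8 libraries deviated alike, but they also shared their depth class, so pairing and depth cannot be told apart. With the number as a block SESN2 missed the threshold in TMD8 (adjusted p = 0.0639). It also did when any of the 3 TMD8 DMSO libraries or NEO2734 replicate 2 or 3 was left out (0.118 to 0.149), and by limma-voom (0.264). SESN1 and SESN3 stayed called in TMD8 without each library in turn. In Toledo the same 3 were called with NEO2734 (5.47% of all genes, 1.27% higher), SESN1 at 0.94 ± 0.28 (adjusted p = 0.0412), SESN2 at 1.59 ± 0.48 (0.0433) and SESN3 at 1.57 ± 0.47 (0.0427). Those Toledo calls were close to the threshold. With Toledo DMSO replicate 2 left out, SESN1 (0.78, adjusted p = 0.338) and SESN3 (2.01, adjusted p = 0.0788) were not called, and SESN2 was, at 2.48. The SESN2 and SESN3 changes were thus larger without that library, and the SESN1 change smaller. Dropping any of the 6 Toledo libraries ended the SESN3 call (0.0788 to 0.140). For SESN1 the other Toledo libraries that did so were DMSO 3, NEO2734 1 and NEO2734 3 (0.0945 to 0.202), and for SESN2 they were DMSO 1, DMSO 3, NEO2734 1 and NEO2734 2 (0.0986 to 0.290). Libraries outside the comparison also tipped these calls through the shared fit. SESN1 missed the threshold without 6 of them (OCILy10 DMSO 1 and 2, TMD8 DMSO 3, OCILy10 CB103 1, OCILy10 NEO2734 1, DOHH2 OTX015 2; at most 0.0524). SESN2 did without 7 (OCILy10 DMSO 1, TMD8 DMSO 3, OCILy10 NEO2734 1, 2 and 3, DOHH2 OTX015 2, Toledo OTX015 2; at most 0.0636) and SESN3 without 2 (OCILy10 DMSO 1, OCILy10 NEO2734 3; at most 0.0566). Scaling by library totals ended all of them (0.0520 for SESN1, 0.0784 for SESN2, 0.0505 for SESN3), as did dropping the filter on low counts.

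In DOHH2 no gene of the set was called with NEO2734 (2.9% of all genes were). At an unadjusted p under 0.05 there were 2, and 1929 of all 12814 genes. DESeq2 and limma-voom each called 1 of the set, and 671 and 367 of all genes. SESN1 was at 0.88 ± 0.28 (adjusted p = 0.0834) and SESN3 at 1.46 ± 0.47 (0.0860) there. With the 3 mixed libraries left out, SESN1 passed in DOHH2 (1.11, adjusted p = 0.0445). With the replicate block SESN3 (1.43, adjusted p = 0.000332) and ASNS (0.88, adjusted p = 0.0227) were called in DOHH2. In OCILy10 none was called either (1.01% of all genes), and 1 had an unadjusted p under 0.05, as had 1411 of all genes. DESeq2 called 0 of the set there (359 of all genes), as did limma-voom (446). SESN3 passed with the block (0.70, adjusted p = 0.0440).

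With OTX015 the only call within a line was SESN3 in TMD8, at 2.64 ± 0.59 (6.22-fold, adjusted p = 0.0351, with 0.39% of all genes called and 0.0858% called higher). It missed the threshold without any of the 3 TMD8 DMSO libraries, OTX015 replicate 2 or 3, or Toledo DMSO replicate 1 (adjusted p = 0.0539 to 0.256), by limma-voom (0.279) and with RLE factors (0.0519). No gene of the set was called in DOHH2 (0.125% of all genes), OCILy10 (0.0702%) or Toledo (3.09%). At an unadjusted p under 0.05 the numbers were 1, 0 and 3, where 990, 970 and 1757 of all 12814 genes were. DESeq2 called 0 of the set in each (86, 81 and 628 of all genes), as did limma-voom (7, 95 and 36). With the replicate block SESN3 was called in DOHH2 (1.24, adjusted p = 0.00829) and in Toledo (1.14, adjusted p = 0.00680). In Toledo same-numbered libraries did not deviate alike for every number.

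TMD8 had the largest changes of SESN3, but a difference between lines was not shown. No gene of the set passed the F-test for a difference in response between the 4 lines, with NEO2734 (0.0156% of all genes did) or with OTX015 (0%). SESN3 had the lowest p in both, at 0.0268 (adjusted 0.627) for NEO2734 and 0.0472 (adjusted 1) for OTX015. It was the only one of the set under 0.05 unadjusted, where 783 and 478 of all genes were. By limma-voom 0 of the set were called for both, and 2 and 0 of all genes. With the replicate block the NEO2734 response of SESN3 did differ between lines (adjusted p = 0.0177). Its DMSO level in TMD8 rests on 27 counts over 3 libraries, which limits the precision of that fold.

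**Figure D3:**
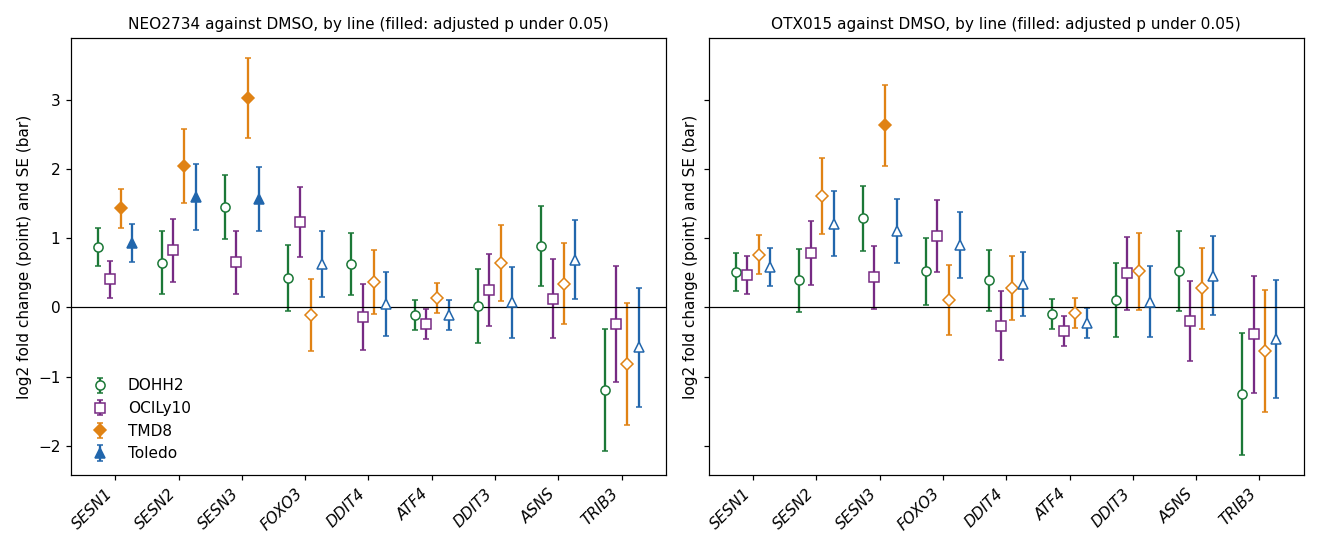
Log2 fold change against DMSO (y axis, bars are SE) of the 9 tested genes (x axis) in each line, NEO2734 on the left and OTX015 on the right, filled where the adjusted p was under 0.05. SESN3 in TMD8 stands highest in both panels, at 3.03 and 2.64, and every sestrin point lies above 0.

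Set against each other directly, NEO2734 and OTX015 did not differ for any of the 9 genes after averaging (0.0312% of all genes were called). SESN1 alone of the 9 had an unadjusted p under 0.05, where 499 of all genes had. DESeq2 and limma-voom called 0 of the 9, and 14 and 2 of all genes. SESN1 was higher with NEO2734 by 0.33 ± 0.14 (unadjusted p = 0.0224, adjusted p = 1), with a 95% interval from 0.05 to 0.62. For SESN2 the interval ran from -0.21 to 0.76 and for SESN3 from -0.17 to 0.79, so differences of either sign or none lie within them. Within TMD8 the 3 NEO2734 libraries lay above the 3 OTX015 libraries for SESN1 (0.67 ± 0.28, adjusted p = 1), where 1.81% of all genes were higher without overlap. In Toledo the same held for SESN3 (0.47 ± 0.45, adjusted p = 1), where 1.77% of all genes were. Since the doses are not given, this compares the treatments as given.

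FOXO3, a transcription factor held out of the nucleus by AKT, leaned upward without passing. Its averaged change was 0.54 ± 0.25 with NEO2734 (adjusted p = 0.126, interval 0.04 to 1.05) and 0.64 ± 0.25 with OTX015 (adjusted p = 0.0961, interval 0.13 to 1.15). In OCILy10 it went from 2.66, 3.17 and 1.51 CPM with DMSO to 7.59, 5.08 and 5.30 CPM with NEO2734 and 7.33, 4.53 and 3.23 CPM with OTX015, both apart from DMSO. In Toledo it went from 36.5, 13.1 and 34.8 CPM to 50.5, 31.0 and 47.9 CPM with NEO2734 and 48.1, 58.8 and 49.9 CPM with OTX015, apart only for OTX015. The 13.1 CPM was that of the mixed DMSO replicate 2. Without it the Toledo DMSO mean was 35.6 CPM in place of 28.1, against 43.1 CPM with NEO2734 and 52.3 CPM with OTX015. In DOHH2 the values were 18.8, 16.1 and 19.4 CPM with DMSO, 24.9, 31.1 and 17.0 CPM with NEO2734 and 23.7, 27.9 and 26.5 CPM with OTX015. FOXO3 with OTX015 was thus above DMSO without overlap in 3 lines, which held for 1.82% of all genes. TMD8 showed no such shift, with 3.24, 7.20 and 8.65 CPM for DMSO, 5.97, 4.37 and 6.88 CPM for NEO2734 and 5.18, 4.30 and 10.5 CPM for OTX015. FOXO3 passed for both inhibitors when OCILy10 CB103 replicate 2, a library outside both comparisons, was left out of the shared fit (adjusted p = 0.0489 and 0.0339), by limma-voom (0.0336 and 0.0369) and with the replicate block (0.0447 and 0.0328).

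DDIT4 was not called in any comparison with an inhibitor. Its averaged changes were 0.23 ± 0.23 (adjusted p = 0.595) with NEO2734 and 0.19 ± 0.23 (0.738) with OTX015. In DOHH2, where it was most abundant, it was at 102, 105 and 117 CPM with DMSO, 212, 133 and 155 CPM with NEO2734 and 128, 139 and 158 CPM with OTX015. Both inhibitors' libraries lay above DMSO there, though the changes of 0.63 ± 0.45 and 0.39 ± 0.44 did not pass (adjusted p = 0.590 and 1). In the other lines the inhibitor libraries overlapped DMSO, and the changes ran from -0.26 to 0.37.

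None of the 4 tested genes of the ATF4 branch was called in the averages with either inhibitor, while ASNS (higher) passed with depth in the fit and TRIB3 (lower) with the replicate block. ATF4 itself changed by -0.08 ± 0.11 (adjusted p = 0.722, interval -0.30 to 0.14) with NEO2734 and by -0.19 ± 0.11 (adjusted p = 0.315, interval -0.41 to 0.04) with OTX015. Of these genes it had the narrowest intervals, which leave out a rise as large as that fitted for any sestrin. In OCILy10 it was at 529, 378 and 355 CPM with DMSO, 382, 334 and 356 CPM with NEO2734 and 368, 348 and 281 CPM with OTX015. In the other lines ATF4 ranged from 101 to 342 CPM with DMSO, 121 to 312 CPM with NEO2734 and 103 to 309 CPM with OTX015, and its groups overlapped in every line. These are transcript levels, and ATF4 is mainly controlled at translation, which was not measured.

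DDIT3 changed by 0.25 ± 0.27 (adjusted p = 0.629) with NEO2734 and 0.30 ± 0.27 (0.579) with OTX015. Its spread was widest in Toledo, with 48.9, 35.5 and 152 CPM for DMSO, 123, 81.0 and 41.5 CPM for NEO2734 and 34.9, 128 and 85.6 CPM for OTX015. The deep library was the lowest of the inhibitor libraries in both groups.

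ASNS makes asparagine from aspartate. It was higher on average with NEO2734 by 0.51 ± 0.29, which did not pass (adjusted p = 0.240), and with OTX015 by 0.27 ± 0.29 (adjusted p = 0.679). In DOHH2 ASNS was at 100.2, 35.9 and 41.4 CPM with DMSO, 193, 77.1 and 62.1 CPM with NEO2734 and 148, 59.7 and 48.7 CPM with OTX015. In Toledo it was at 164, 82.8 and 102 CPM with DMSO, 149, 176 and 239 CPM with NEO2734 and 182, 165 and 135 CPM with OTX015. The deep library was the highest of its group in both lines, and groups overlapped. ASNS was 1.17 ± 0.10 higher (log2, adjusted p = 1.94e-11) in deep than in shallow libraries of the same group, a difference larger than either inhibitor change. With the depth class in the fit, ASNS was called with NEO2734 (0.52, adjusted p = 0.00148) and with OTX015 (0.39, 0.0245), and likewise in the shallow libraries alone (0.59, adjusted p = 0.0129, and 0.54, 0.0281). Within each depth class its mean was higher than with DMSO in 4 of 4 lines for both inhibitors. The smallest log2 ratio was 0.069, with NEO2734 in the deep OCILy10 libraries, and the share of all genes so placed was not counted.

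TRIB3, a pseudokinase gene induced by ATF4 and DDIT3, went the other way. Its averaged change was -0.71 ± 0.43 with NEO2734 (adjusted p = 0.293) and -0.68 ± 0.43 with OTX015 (0.372), and neither passed. In DOHH2 it was at 18.7, 6.81 and 4.53 CPM with DMSO, 7.62, 2.49 and 2.65 CPM with NEO2734 and 7.502, 4.46 and 0 CPM with OTX015, where the count of 0 allows up to 2.15 CPM. In TMD8 it was at 12.6, 3.32 and 7.21 CPM with DMSO, 8.11, 2.19 and 2.29 CPM with NEO2734 and 8.29, 1.43 and 4.74 CPM with OTX015. The groups overlapped, and the first library, the deep one, was highest in all of them. TRIB3 was 1.41 ± 0.24 (adjusted p = 9.53e-06) higher in deep libraries. The deep library was replicate 1 in every group but Toledo NEO2734. With the replicate block TRIB3 was called lower with NEO2734 (-0.70, adjusted p = 0.0373) and OTX015 (-0.73, 0.0424). The block also called ASNS with NEO2734 (0.52, adjusted p = 0.00164).

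**Figure D4:**
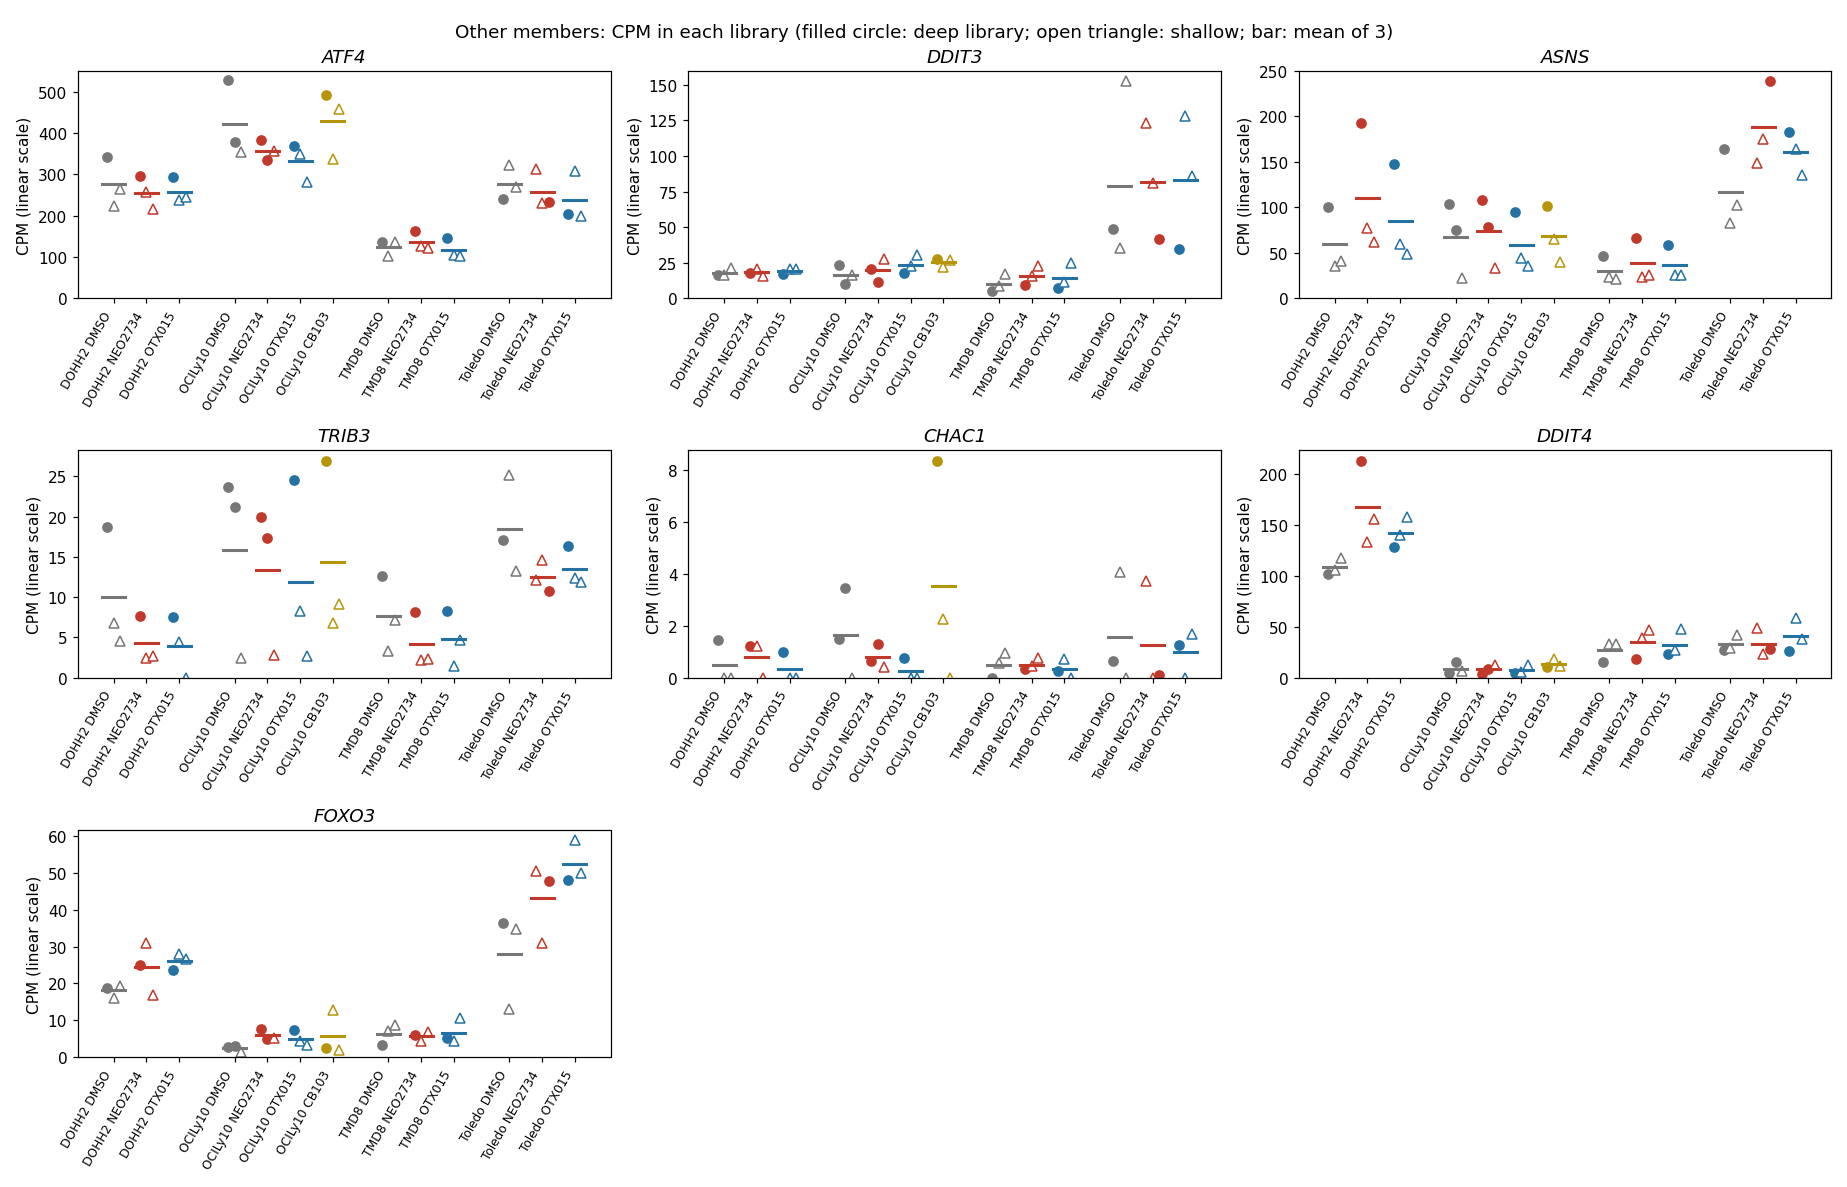
CPM on a linear scale (y axis) of the other 7 genes in each library, by group (x axis), with filled circles for deep and open triangles for shallow libraries and bars for the mean of 3. The filled circles of ASNS and TRIB3 stand above the triangles in most groups, DDIT4 is highest in DOHH2 (from 102 CPM) and DDIT3 in Toledo.

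Depth touched other genes of the set as well. Deep libraries were lower for SESN3 (-0.70 ± 0.14, adjusted p = 5.7e-05), DDIT3 (-0.68 ± 0.19, 0.00235) and DDIT4 (-0.48 ± 0.17, 0.0151). The differences of SESN1 (0.21 ± 0.11, adjusted p = 0.0921), SESN2 (-0.31 ± 0.19, 0.150), FOXO3 (-0.04 ± 0.20, 0.869) and ATF4 (0.18 ± 0.08, 0.0649) did not pass. What set the deep libraries apart beside their totals is not stated in the labels.

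**Figure D5:**
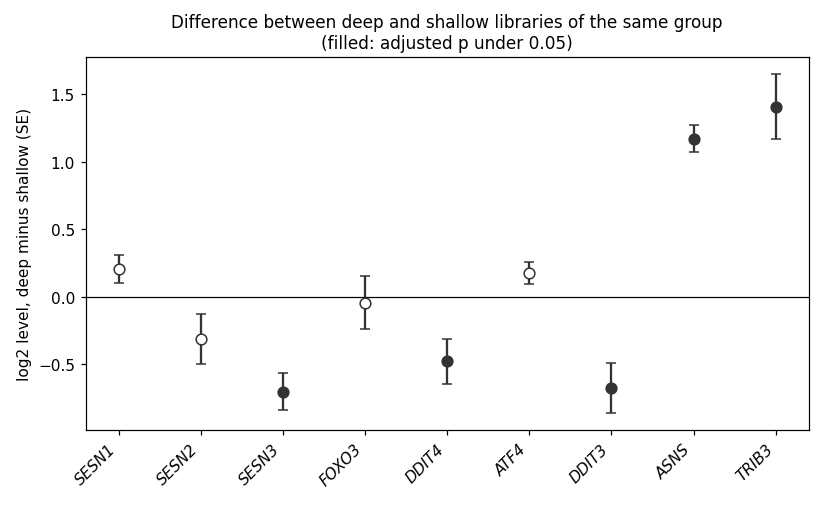
Log2 level in deep minus shallow libraries of the same group (y axis, bars are SE) for the 9 tested genes (x axis), filled where the adjusted p was under 0.05. ASNS and TRIB3 lie above 1, and SESN3, DDIT3 and DDIT4 below 0.

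CHAC1, which encodes a glutathione-degrading enzyme of the unfolded protein response, was barely detected. It had 253 counts over all libraries and 0 in 14 of them, where a count of 0 allows up to between 0.324 and 3.07 CPM. In OCILy10 there were 38 counts with DMSO, 17 with NEO2734 (ratio of CPM 0.410, 95% exact interval 0.217 to 0.744) and 9 with OTX015 (0.294, 0.125 to 0.618). In Toledo there were 19, 9 (0.381, 0.152 to 0.885) and 14 (0.686, 0.318 to 1.44). These intervals cover counting error only, and single libraries dominated the sums. In the OCILy10 DMSO libraries CHAC1 was at 1.49, 3.46 and 0 CPM, and in those of Toledo at 0.631, 4.10 and 0 CPM, with the 4.10 CPM in replicate 2, which held OCILy10 genes. In DOHH2 (13, 12 and 8 counts) and TMD8 (3, 5 and 3 counts) the intervals of both ratios included 1.

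CB103 was compared with DMSO in OCILy10 only, to see what blocking the Notch complex did. None of the 9 genes was called, and no gene of the table was (0%), with 273 of 12814 genes and 1 of the 9 at an unadjusted p under 0.05. DESeq2 called 27 genes and limma-voom 0, neither including one of the 9. FOXO3 was that 1 gene (1.18 ± 0.52, unadjusted p = 0.0300), from 12.9 CPM in replicate 2 against 2.41 and 1.84 CPM in the other two. Replicate 2 held Toledo genes, and without it and the other 2 such libraries the change of FOXO3 was -0.20 ± 0.44. The sestrins were at 10.1, 12.2 and 6.45 CPM (SESN1), 20.5, 17.9 and 7.37 CPM (SESN2) and 65.1, 89.0 and 157 CPM (SESN3) with CB103, all overlapping DMSO. CHAC1 had 97 counts, 8.36 CPM, in CB103 replicate 1, 2.28 CPM in replicate 2 and 0 in replicate 3. The second deposited table gives that library another column with 5474462 counts in place of 11430777, and CHAC1 has 1 count there. In that column SESN3 was at 21.4 CPM by library total in place of 66.1, DDIT4 at 0.913 in place of 10.5 and ATF4 at 414 in place of 498. The remaining 38 columns were equal in both tables.

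Other genes of the pathway were counted in lists. Of all genes tested 20.5% were called with NEO2734 (9.29% higher) and 11.6% with OTX015 (5.53% higher), with medians of -0.02 and -0.03, and these stand beside every list below. Of 25 tested ATF4 target genes, which were chosen without the genes above, 1 rose and 1 fell with NEO2734, a share below the 20.5% of all genes. The amino acid transporter gene SLC38A2 rose by 0.35 ± 0.10 (adjusted p = 0.0119), and SLC7A1, which encodes a cationic amino acid transporter, changed by -0.77 ± 0.22 (0.0134). The list's median change was -0.16, against -0.02 over all genes. With OTX015 SLC38A2 alone was called (0.31 ± 0.10, adjusted p = 0.0419; 11.6% of all genes), and the median was -0.13 against -0.03.

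Of 14 eIF2 kinase, phosphatase and exchange factor genes, 2 rose and 2 fell with NEO2734, where 20.5% of all genes were called. EIF2AK2, the interferon-inducible kinase PKR, changed by -1.40 ± 0.29 (adjusted p = 0.000581) and EIF2B3 by -0.33 ± 0.10 (0.0191). DNAJC3, an inhibitor of such kinases, rose by 0.53 ± 0.11 (adjusted p = 0.000657) and PPP1R15B, a subunit of the eIF2 phosphatase, by 0.33 ± 0.11 (0.0286). With OTX015 only EIF2AK2 was called (-1.03 ± 0.28, adjusted p = 0.0151). The medians were -0.14 and -0.06. Of 16 other unfolded protein response genes, ERN1, the stress sensor IRE1, rose with NEO2734 (0.45 ± 0.16, adjusted p = 0.0493) and the disulphide isomerase gene PDIA6 fell with both (-0.53 ± 0.15, 0.00821, and -0.51 ± 0.15, 0.0202). That is 2 of 16 called with NEO2734 (20.5% of all genes) and 1 with OTX015 (11.6%), with medians of -0.0012 and -0.07.

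Among 43 tested sestrin partners and mTORC1 regulators, 9 rose and 1 fell with NEO2734, with a median of 0.07. These 10 called of 43 are near the share of all genes called (20.5%). The 9 of 43 that rose stand beside 9.29% of all genes called higher. RICTOR, the defining subunit of mTORC2, rose by 0.52 ± 0.10 (adjusted p = 0.000326), FNIP1, a partner of folliculin, by 0.66 ± 0.15 (0.00169) and ULK1, a kinase that starts autophagy, by 1.18 ± 0.31 (0.00617). SEH1L, a subunit of the GATOR2 complex that sestrins bind, changed by -0.40 ± 0.09 (adjusted p = 0.00190). With OTX015, 3 rose and 0 fell (11.6% of all genes called) with a median of 0.09, namely ULK1 (1.41 ± 0.31, adjusted p = 0.00295), RICTOR (0.38 ± 0.10, 0.0122) and the AMPK subunit gene PRKAG1 (0.55 ± 0.15, 0.0155).

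The FOXO family and target list had 4 genes that rose and 1 that fell of 17 tested with NEO2734 (20.5% of all genes called, 9.29% higher), with a median of 0.42 against -0.02 over all genes. TXNIP, a thioredoxin inhibitor, rose by 1.30 ± 0.16 (adjusted p = 1.31e-06), CCNG2, an unconventional cyclin, by 1.19 ± 0.26 (0.00119) and CDKN1B, the inhibitor p27, by 0.42 ± 0.11 (0.00463). With OTX015, 2 rose (TXNIP 0.87 ± 0.16, adjusted p = 0.000556, and CCNG2 0.82 ± 0.26, 0.0369) and 1 fell (11.6% of all genes called), with a median of 0.30 against -0.03. Of 18 tested p53 target genes, 3 rose and 1 fell with NEO2734, a share near the 20.5% of all genes. RRM2B, a ribonucleotide reductase subunit, rose by 0.64 ± 0.14 (adjusted p = 0.00129), XPC, a DNA repair gene, by 0.44 ± 0.12 (0.00968) and BTG2, an antiproliferative gene, by 0.79 ± 0.24 (0.0182). The nuclease gene AEN fell (-0.96 ± 0.14, adjusted p = 8.99e-06). With OTX015 RRM2B (0.56 ± 0.14, adjusted p = 0.00808) and BTG2 (0.80 ± 0.24, 0.0281) rose and AEN fell (-0.80 ± 0.14, 0.000271), where 11.6% of all genes were called. The medians for the p53 list were 0.02 with NEO2734 and -0.13 with OTX015, on either side of the median of all genes.

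Across the 13 group means, once each line's own mean was taken off, the sestrins were alike. This likeness takes in the rises described above and is not a separate result. On log2 CPM, Pearson's r was 0.94 between SESN2 and SESN3, 0.93 between SESN1 and SESN3 and 0.88 between SESN1 and SESN2. TRIB3 ran against them (r from -0.77 to -0.63), ASNS ran with them (0.65 to 0.73), and ATF4 lay between -0.37 and -0.27. These are descriptions over 13 points that share libraries, depth and DMSO groups. Over 10051 genes compared in this way, the closest to SESN1 were TRA2A, MAPK14 and CNNM4 (r of 0.96 for each). Among those closest to SESN2 were GALNT10 (0.98) and RHBDD2 (0.97), and closest to SESN3 were PAIP2 (0.97), PTTG1IP (0.97) and LFNG (0.96). FOXO3 was most like GTF3C1 (0.97), CEP128 (0.96) and CDKN2C (0.95). DDIT4 had the loosest matches, KANK1 (0.91), ZNF493 (0.89) and PIGA (0.89). For ATF4 they were BET1 (0.94), NFXL1 (0.93) and DUSP12 (0.92), and for DDIT3 WDR45B (0.94), CDC40 (0.92) and CNNM2 (0.91). For ASNS they were SMTN (0.96), NECAP1 (0.96) and CCNL1 (0.95), and for TRIB3 ADGRE5 (0.96), UBE2M (0.94) and DAPK2 (0.93).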

How the data were processed

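Read counts per gene are used as the authors deposited them. Per the submitters' processing notes, STAR and edgeR were used on hg38; those notes hold no versions and no counting tool. Both deposited tables hold whole counts, and the raw one was used. Symbols and positions came from GENCODE 29 by gene ID without its version (15668 of 15808 IDs; 3781 with the same version). One edgeR (4.0.16, R 4.3.3) quasi-likelihood model held 13 group coefficients with TMM scaling and filterByExpr, leaving 12814 genes and 26 residual degrees of freedom. P-values were Benjamini-Hochberg adjusted over these genes, with 0.05 as threshold. CPM use TMM library sizes, intervals are 95%, and a count of 0 was taken to allow 3. The script was tested on simulated counts. Alternatives used DESeq2 1.42.0 and limma 3.58.1 (voom), other scalings, no filter, depth classes split at 5000000 counts, left-out libraries and a replicate block. The replicate numbers come from the sample titles. Deviations of same-numbered libraries correlated over 0.1 for every number in DOHH2 and TMD8 (r from 0.262 to 0.904) and for NEO2734 in OCILy10 (0.785 to 0.882), not in Toledo or the other OCILy10 comparisons. Where they correlated for every number, same-numbered libraries also had the same depth class, so pairing and depth cannot be told apart. The named genes were all 10 genes of the set, up to 4 called genes of lowest adjusted p per list and averaged comparison, and the 3 genes most alike to each. The genes and lists were chosen with earlier results of these data known. The values of a few genes that the naming rule or the lists would give are not reported here.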

Additional observations from a re-analysis of the deposited data

How the results depend on the processing

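The averaged counts of 3 called genes held with both inhibitors under DESeq2, library totals, upper quartile, RLE factors, no filter and with the 3 mixed libraries left out. With NEO2734 they were 4 by limma-voom, in shallow libraries and with depth in the fit, 2 in deep libraries and 6 with the replicate block, and with OTX015 4 by limma-voom and with depth, 3 in shallow libraries, 0 in deep ones and 5 with the block. Leaving out one library gave 3 to 4 for each. Of all genes, DESeq2 called 2970 and limma-voom 2658 with NEO2734, against 2630 in the main fit. With OTX015 they called 1800 and 1398, against 1484. For the other alternatives the share of all genes called is not given. The counts under them, here and below, are therefore not a result about these genes. Same-numbered libraries deviated alike for every number only in DOHH2, TMD8 and part of OCILy10, where they also shared their depth class. Replicate 1 is the deep library in most groups, and the cause of the added calls was not tested. Summed over lines, the 6 NEO2734 calls became 3 with library totals, 3 without a filter, 4 with RLE factors or upper quartile, 5 by limma-voom and without the 3 libraries, 7 by DESeq2, 0 in deep and 1 in shallow libraries (fewer samples), 10 with depth in the fit and 8 with the block, and 3 to 6 without one library. The single OTX015 call within a line became 0 by limma-voom, with RLE factors, in deep and in shallow libraries, 2 with depth, 3 with the block, and 0 to 1 without one library. The response to NEO2734 differed between lines for 1 gene with the block. The 28 calls between pairs of lines with DMSO became 18 in deep and 19 in shallow libraries, 36 with depth or the block and 31 without the 3 libraries, with 24 to 30 without one library. All 0 counts for CB103, for NEO2734 against OTX015 and for the OTX015 response between lines stayed 0 under the alternatives run; the F-tests were not run in DESeq2. Among the averaged changes with an inhibitor, signs turned as follows. DDIT4 with OTX015 was -0.051 in deep libraries. For NEO2734 against OTX015, DDIT4 was -0.0022 with the block (-0.050 to 0.19 without one library), FOXO3 0.010 in deep libraries (-0.15 to 0.020), DDIT3 0.12 in deep libraries and 0.0097 with depth (-0.16 to 0.10), and TRIB3 0.022 by limma-voom, 0.035 with the block and 0.046 without the mixed libraries (-0.28 to 0.27). Depth limits SESN2 and SESN3 in TMD8 and all of CHAC1.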
